A study of Mus musculus with 4 samples.

Results

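Ly6a, Ly6c1, Ly6c2 and Ly6e, 4 genes of the Ly6 family of surface proteins, were described across the cell classes of the mouse colon in droplet single-cell RNA sequencing data. They were taken by name as 4 of the 29897 genes listed in any library, and all 4 were listed in every library. They were selected on measured values of these libraries, among them a lower level of Ly6a in colonocytes of mice given CCl4. That change is therefore given as a description without a p-value, and the others carry no independent support from the choice of genes. The study compared colon tissue of mice treated with CCl4 (carbon tetrachloride, which damages the liver and in rodents leads to cirrhosis) with that of control mice, in 2 libraries each. Per the labels, the CCl4 mice were specific-pathogen-free, were 6 weeks old at the start and were treated for 6 weeks. For the controls neither an age, nor a duration, nor a vehicle is labelled, and for neither group a strain or the number of animals in a library. Because nothing says that libraries 1 and 2 of a group came from separate animals, the p-values rest only on how far libraries of a group lie apart, which may be technical. No liver measurement was analysed here.

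Proteins of the Ly6 family are small, rich in disulphide bonds and held in the outer leaflet of the cell membrane by a glycosylphosphatidylinositol (GPI) anchor. Ly6a, also called Sca-1, is a mouse protein used to sort blood stem cells, and its transcription is raised by interferons. Ly6c1 and Ly6c2 encode the closely related forms of the Ly6C antigen, which is carried by endothelial cells, by a class of blood monocytes, by plasma cells and by some memory T cells. Ly6e, also known as Sca-2 or thymic shared antigen, is likewise induced by interferon and limits the entry of some coronaviruses into cells.

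On the GRCm38 build with the GENCODE M21 annotation, all 4 genes lie on chromosome 15 within 156.9 kb. Ly6e is at 74955051-74959905 on the plus strand. Ly6a at 74994877-74998031, Ly6c1 at 75044018-75048830 and Ly6c2 at 75108158-75111970 are on the minus strand. The gaps between neighbours are 34.97, 45.99 and 59.33 kb in that order. The first 260 coding bases of Ly6c1 and Ly6c2 are shown because their likeness bears on how counts can be assigned to one or the other. They are spliced from exons within chr15:75045538-75048511 and chr15:75108679-75111667 and are read 5′ to 3′ on the minus strand, with capitals at the 7 bases of this stretch that differ.
Ly6c1: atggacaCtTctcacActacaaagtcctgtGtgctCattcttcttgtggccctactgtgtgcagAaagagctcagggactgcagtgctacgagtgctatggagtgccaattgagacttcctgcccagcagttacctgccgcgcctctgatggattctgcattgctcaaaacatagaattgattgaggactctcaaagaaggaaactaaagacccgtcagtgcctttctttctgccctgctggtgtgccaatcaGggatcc
Ly6c2: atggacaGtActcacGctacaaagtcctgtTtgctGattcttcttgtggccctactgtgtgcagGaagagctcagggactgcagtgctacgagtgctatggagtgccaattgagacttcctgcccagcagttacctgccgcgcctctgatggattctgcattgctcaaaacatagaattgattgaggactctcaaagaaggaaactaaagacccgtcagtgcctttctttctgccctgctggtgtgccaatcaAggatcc
Of all 396 coding bases, 387 were identical (97.7%) and 9 differed, and the longest identical run was 188 bases. Among the 50-base windows of the transcripts, which are 844 bases long for Ly6c1 and 822 for Ly6c2, 31.7% of those of Ly6c1 occurred in Ly6c2 and 32.6% of those of Ly6c2 in Ly6c1. A read that falls in such a window names neither gene, and the read length and the treatment of such reads are not given in the sources used here. Ly6a shared 82.0% of aligned coding bases with Ly6c1 and 81.7% with Ly6c2. Ly6e was the most distant, with 50.3% to 54.5% identity to the other three.

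Upstream of their starts the pair is less alike. The 250 bases before the start of each gene, from the RefSeq promoter table on GRCm38.p6, are shown because Ly6c1 and Ly6c2 were counted in different cell classes (below), and capitals mark bases that differ or have no partner in the alignment. The windows are chr15:75048838-75049087 for Ly6c1 and chr15:75111972-75112221 for Ly6c2, both on the minus strand and written 5′ to 3′.
Ly6c1: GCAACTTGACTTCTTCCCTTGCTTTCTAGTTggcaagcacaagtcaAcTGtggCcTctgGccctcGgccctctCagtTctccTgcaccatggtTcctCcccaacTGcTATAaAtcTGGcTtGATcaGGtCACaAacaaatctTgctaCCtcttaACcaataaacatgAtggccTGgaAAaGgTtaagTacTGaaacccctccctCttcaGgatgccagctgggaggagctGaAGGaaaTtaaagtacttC
Ly6c2: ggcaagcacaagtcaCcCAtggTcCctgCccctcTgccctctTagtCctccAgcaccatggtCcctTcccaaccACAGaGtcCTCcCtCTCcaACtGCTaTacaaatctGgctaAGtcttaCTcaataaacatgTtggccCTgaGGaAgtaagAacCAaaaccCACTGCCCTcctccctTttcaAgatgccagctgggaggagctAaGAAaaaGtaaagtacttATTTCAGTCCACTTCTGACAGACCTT
In the alignment, 164 of 228 columns were identical (71.9%). The gamma-activated site TTCNNNGAA, searched on both strands, was in 0 of 2 windows of 300 bases for Ly6c1 and 0 of 2 for Ly6c2, and in 8.30% of all 32851 such windows. The interferon-stimulated response element GAAANNGAAA was in 0 of 2 and 0 of 2, and in 3.44% of all windows. These letters were not in the windows searched, which says nothing about regulation elsewhere. The table matched Ly6c1 and Ly6c2, and Ly6a and Ly6e were not used in this search.

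Depth per library was 92383719 and 74643979 counts (13986 and 12464 barcodes) for CCl4, against 55834301 and 58667918 counts (10021 and 10038 barcodes) for control. After filters on genes, mitochondrial counts and doublets, 10404 and 9823 cells of the CCl4 libraries and 8109 and 8268 cells of the control libraries were used. Their median mitochondrial share was 7.51% and 6.84% in the CCl4 libraries, against 4.84% and 4.56% in the control libraries. Of 16517 barcode names, 11590 occurred in more than 1 library, but 0 count profiles were shared between libraries. Clustering and 25 marker sets gave 15 named classes, of which 13 held at least 50 cells in each library. Cells in unnamed clusters made up 20.3% and 23.3% of the CCl4 libraries, against 10.4% and 14.1% of the control libraries. Levels are given as CPM, the counts of a gene per 1000000 counts of its class in a library. Changes between the groups are log2 ratios (CCl4 divided by control), fitted to summed counts with the quasi-likelihood test of edgeR and called at an adjusted p under 0.05. A fit with 1 library left out has 1 library in 1 group. Its adjusted p rests on the spread of the other group only, so a call gained or lost there is weak evidence. Transcripts of other cell types occurred in every class. In fibroblasts, for example, the 7 shared epithelial markers summed to 657 and 744 CPM in the CCl4 libraries, against 292 and 282 CPM in the control libraries. The 7 plasma cell markers in fibroblasts summed to 507 and 452 CPM in the CCl4 libraries, against 1243 and 1278 CPM in the control libraries.

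Each gene had its own distribution over the classes. Ly6a and Ly6c1 were highest in blood endothelial cells and next in fibroblasts, Ly6c2 was highest in plasma cells, and Ly6e was at 407 CPM or more in every library of 9 of the 13 classes. Since classes were built by clustering the same cells, levels between classes are descriptions and were not tested.

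**Figure D1:**
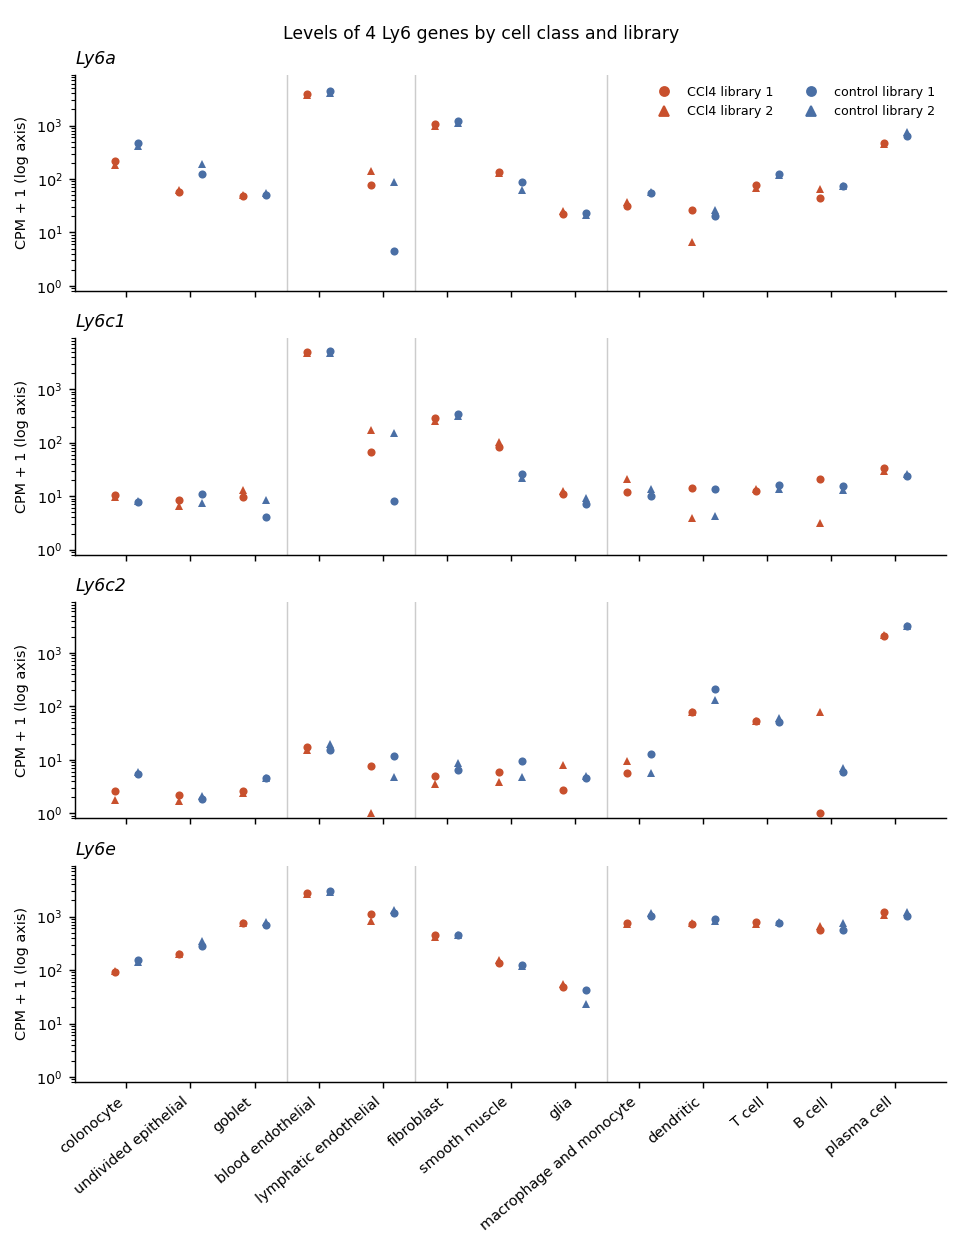
Level of each Ly6 gene (CPM + 1, log axis) in 13 cell classes, ordered as epithelial, endothelial, stromal with glia, and immune, with 1 point per library (CCl4 left, control right). Ly6c1 stood at 4675 to 5136 CPM in the 4 libraries of blood endothelial cells, and Ly6c2 at 2094 to 3251 CPM in plasma cells.

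In blood endothelial cells Ly6a was at 3922 and 3700.2 CPM in the CCl4 libraries, against 4386 and 3984 CPM in the control libraries. In fibroblasts it was at 1083 and 964 CPM in the CCl4 libraries, against 1202 and 1104 CPM in the control libraries. These classes stood apart from each other and from all further classes in every library. Plasma cells and colonocytes followed, with 447 to 748 CPM and 183 to 476 CPM over the 4 libraries, and these ranges overlapped. Below these came undivided epithelial cells (a cluster led by Adh1, Clca3b and Kcne3 in which no single epithelial type prevailed), smooth muscle, T cells, lymphatic endothelial cells, B cells, goblet cells and macrophages and monocytes, each overlapping its neighbour in this order. Glia and dendritic cells were lowest, with 5.71 to 25.2 CPM. With every cell thinned to 1000 counts, the share of blood endothelial cells with Ly6a was 92.0% and 93.0% in the CCl4 libraries, against 91.8% and 89.9% in the control libraries. The same share in glia, whose median of 3327 to 3749 counts per cell was similar to the 3211 to 4132 of endothelial cells, was 2.19% and 2.02% in the CCl4 libraries, against 2.48% and 0.610% in the control libraries.

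Within fibroblasts, the level of Ly6a varied from cluster to cluster. Clusters of a finer clustering (leiden resolution 2.0) are named by their leading genes. The Pi16-led cluster, which carried 4 of 5 markers of adventitial fibroblasts, had Ly6a at 2199 and 1994 CPM in the CCl4 libraries, against 2307 and 2061 CPM in the control libraries. In the Cilp- and Ackr4-led cluster, with 4 of 5 submucosal markers, Ly6a was at 1114 and 961 CPM in the CCl4 libraries, against 1104 and 1076 CPM in the control libraries. The Bmp5-led cluster, with 5 of 5 subepithelial markers, had 634 and 634 CPM in the CCl4 libraries, against 859 and 584 CPM in the control libraries. The Adamdec1-led cluster of lamina propria type was lowest, at 478 and 457 CPM in the CCl4 libraries, against 567 and 524 CPM in the control libraries. The Pi16-led cells also had more Ly6c1, at 723 and 669 CPM in the CCl4 libraries, against 871 and 833 CPM in the control libraries, than the Adamdec1-led cells, at 78.2 and 71.3 CPM in the CCl4 libraries, against 85.9 and 94.7 CPM in the control libraries. In 3 of these 4 clusters the Ly6a values of the CCl4 and control libraries overlapped, and in the Adamdec1-led cells both CCl4 values lay below both control values.

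Ly6a was lower in colonocytes and in undivided epithelial cells of the CCl4 libraries, and was not called in goblet cells, and the difference between goblet cells and colonocytes was not tested. In colonocytes, which carried Car1, Guca2a and Krt20 among their leading genes, it was at 217 and 183 CPM in the CCl4 libraries, against 476 and 419 CPM in the control libraries, and both CCl4 values lay below both control values. The fitted log2 ratio was -1.16 ± 0.10 (SE). The share of colonocytes with Ly6a after thinning was 16.6% and 15.9% in the CCl4 libraries, against 29.1% and 29.8% in the control libraries, and without thinning it was 58.7% and 57.1% in the CCl4 libraries, against 70.4% and 69.7% in the control libraries. In undivided epithelial cells Ly6a was at 55.1 and 62.3 CPM in the CCl4 libraries, against 125 and 188 CPM in the control libraries, without overlap, and the fitted log2 ratio was -1.35 ± 0.19 (SE; adjusted p = 0.0216). It was the single Ly6 gene of the 3 tested that passed in this class, where 0.121% of 10778 genes did and 0.0835% were called lower. The same class had 445 and 416 CPM in the CCl4 libraries, against 731 and 868 CPM in the control libraries of the 7 plasma cell markers, whose part in the result was not tested. It had 421 and 361 cells in the CCl4 libraries, against 100 and 76 cells in the control libraries. Without CCl4 library 1 its Ly6a log2 ratio was -1.27 (adjusted p = 0.0661), and with doublets kept -1.26 (adjusted p = 0.1196). Goblet cells, the mucus-making cells with Muc2, Spink4 and Agr2, had Ly6a at 47.6 and 49.0 CPM in the CCl4 libraries, against 48.4 and 53.8 CPM in the control libraries. These values overlapped, and the fitted log2 ratio was -0.049 ± 0.12 (SE; adjusted p = 0.904).

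Among 4 finer clusters of absorptive and undivided epithelial cells, Ly6a differed in level but not in the order of the groups. The Krt20-led colonocyte cluster had the most, at 273 and 237 CPM in the CCl4 libraries, against 609 and 536 CPM in the control libraries. The Aqp4-led cluster had 163 and 130.1 CPM in the CCl4 libraries, against 301 and 253 CPM in the control libraries. In the Gsdmc2-led cluster it was at 91.0 and 106 CPM in the CCl4 libraries, against 184 and 209 CPM in the control libraries. The Adh1-led cluster had 55.7 and 62.6 CPM in the CCl4 libraries, against 117 and 183 CPM in the control libraries. In each of these 4 clusters both CCl4 values lay below both control values. The finer clusters divide the same cells, colonocytes among them, whose Ly6a value the selection used. The order is therefore a description and adds no support. Values without overlap were found for 42.5% of all genes tested in colonocytes and for 40.3% in undivided epithelial cells. Colonocytes also held low counts of other cells' markers. The 8 blood endothelial markers summed to 25.2 and 27.0 CPM in the CCl4 libraries, against 20.6 and 28.2 CPM in the control libraries, and the groups overlapped. The 7 fibroblast markers in colonocytes summed to 50.1 and 72.4 CPM in the CCl4 libraries, against 93.9 and 116 CPM in the control libraries, lower in both CCl4 libraries. All 8 and all 7 were above 0 in every library. In colonocytes with no count of either marker list, a restriction added after the data were seen, Ly6a was at 221 and 191 CPM in the CCl4 libraries, against 449 and 394 CPM in the control libraries. Its log2 ratio there was -1.03 ± 0.11 (SE).

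**Figure D2:**
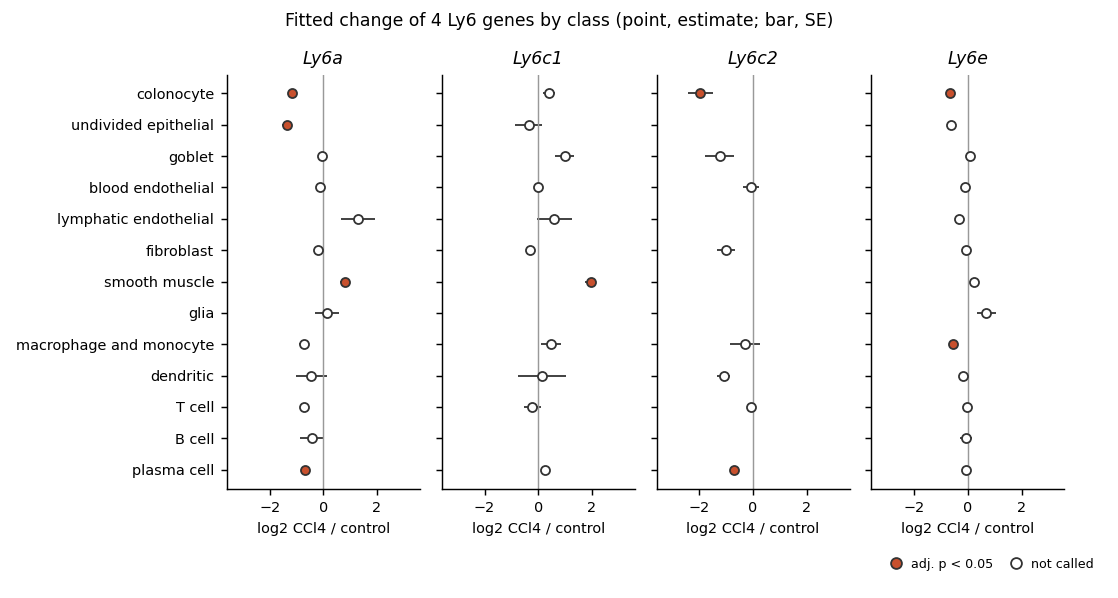
Fitted log2 ratio of CCl4 over control for each Ly6 gene in each class (point, estimate; bar, SE), with filled points at an adjusted p under 0.05 and no point where the gene did not pass the low-count filter. Of 45 pairs of a gene and a class that could be tested, 7 were called lower and 2 higher in CCl4 libraries, both of the higher ones in smooth muscle.

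Of the 52 pairs of a gene and a class, 45 passed the low-count filter and 9 were called, 1 of them Ly6a in colonocytes, which the selection of the genes used. Among all genes tested, the share called was 1.32% in colonocytes, 0.121% in undivided epithelial cells, 0.981% in goblet cells, 0.525% in blood endothelial cells and 0.116% in lymphatic endothelial cells. It was 1.95% in fibroblasts, 1.43% in smooth muscle, 0.67% in glia and 1.4% in plasma cells. It was 0.539% in T cells, 0% of 4794 genes in B cells, 1.37% in macrophages and monocytes and 0.154% in dendritic cells. Values of the 2 groups that did not overlap were common, at 37.5% to 45.3% of all genes tested in a class, so they are stated below as descriptions. By gene, the 9 calls were 4 of 13 for Ly6a, 1 of 11 for Ly6c1, 2 of 8 for Ly6c2 and 2 of 13 for Ly6e. The median log2 ratio over the classes tested was -0.43 for Ly6a, 0.26 for Ly6c1, -0.86 for Ly6c2 and -0.09 for Ly6e, while the median of all genes lay between -0.0093 and 0.0061 in the 13 classes. The classes share their libraries, so these medians are descriptions.

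Outside the epithelium, Ly6a fell in plasma cells of the CCl4 libraries. Its levels, 479.7 and 447 CPM in the CCl4 libraries, against 644 and 748 CPM in the control libraries, did not overlap, and the log2 ratio was -0.70 ± 0.10 (SE; adjusted p = 0.0138). Without CCl4 library 2 it was -0.63 (adjusted p = 0.0710). The 7 epithelial markers in plasma cells summed to 710.4 and 570.5 CPM in the CCl4 libraries, against 244 and 298 CPM in the control libraries, all above 0 in every library, and their part in the result was not tested. T cells had Ly6a at 77.3 and 66.1 CPM in the CCl4 libraries, against 124 and 116 CPM in the control libraries, again without overlap, and a log2 ratio of -0.74 ± 0.15 (SE; adjusted p = 0.0635), which missed the threshold. It passed with DESeq2, at -0.74 (adjusted p = 0.0289), and was -0.81 without control library 2. Among the finer clusters that kept the T cell name, the Ifng-, Il4- and Gata3-led cluster carried most Ly6a. It had 153 and 91.5 CPM in the CCl4 libraries, against 203 and 212 CPM in the control libraries. In the Gzma-led cluster, with 4 of 6 markers of cytotoxic T cells, Ly6a was at 28.0 and 22.7 CPM in the CCl4 libraries, against 51.3 and 52.9 CPM in the control libraries. A further cluster of 1436 cells, led by Icos, Emb and Il1rl1, scored highest for T cell markers but was left unnamed. Its leading genes held more of another marker set. It is not described here, and the T cell class of 3988 cells may include its cells. Macrophages and monocytes had 30.1 and 35.9 CPM in the CCl4 libraries, against 53.7 and 55.9 CPM in the control libraries, with a log2 ratio of -0.73 ± 0.19 (SE; adjusted p = 0.0805). In blood endothelial cells the log2 ratio was -0.11 ± 0.092 (SE; adjusted p = 0.778), and in fibroblasts -0.18 ± 0.089 (SE; adjusted p = 0.432). Lymphatic endothelial cells, with 62 to 104 cells a library, had 75.8 and 142 CPM in the CCl4 libraries, against 3.52 and 87.2 CPM in the control libraries, which overlapped. These came from 34 and 48 counts in 8 and 6 cells of the CCl4 libraries, against 1 and 23 counts in 1 and 4 cells of the control libraries. The log2 ratio in lymphatic endothelial cells was 1.29 ± 0.64 (SE; adjusted p = 0.708). Without control library 2 it was 4.83, which rests on 1 Ly6a count in 1 control cell.

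Ly6c1 was highest in the blood endothelium by a wide margin. Blood endothelial cells, led by Plvap, Flt1 and Kdr, had 4926 and 4675 CPM in the CCl4 libraries, against 5136 and 4738 CPM in the control libraries, and the groups overlapped. The log2 ratio was -0.016 ± 0.090 (SE; adjusted p = 0.983). The Kdr-led cluster, with 4 of 5 capillary markers, had 5309 and 4874 CPM in the CCl4 libraries, against 5415 and 5057 CPM in the control libraries. The cluster led by Cytl1, Sema3g and Aqp1, with 5 of 5 venular and 3 of 5 arterial markers, was lower in every library, at 4027 and 3937 CPM in the CCl4 libraries, against 4233 and 3859 CPM in the control libraries. Ly6a had the same order. In the Kdr-led cells it was at 4184 and 3856 CPM in the CCl4 libraries, against 4646 and 4241 CPM in the control libraries, and in the Cytl1-led cells at 3354 and 3305 CPM in the CCl4 libraries, against 3712 and 3219 CPM in the control libraries.

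Fibroblasts had Ly6c1 at 291 and 259 CPM in the CCl4 libraries, against 345 and 319.9 CPM in the control libraries. Both CCl4 values lay below both control values, but the log2 ratio of -0.29 ± 0.092 (SE; adjusted p = 0.169) was not called. Lymphatic endothelial cells had 64.6 and 174 CPM in the CCl4 libraries, against 7.04 and 152 CPM in the control libraries, from 1 to 6 cells with a count in a library. Apart from smooth muscle, the other classes lay at 32.3 CPM or less in every library. In goblet cells Ly6c1 was at 8.57 and 12.1 CPM in the CCl4 libraries, against 3.02 and 7.46 CPM in the control libraries, and the log2 ratio was 0.98 ± 0.36 (SE; adjusted p = 0.250). Without control library 2 it was 1.78. Colonocytes had 9.35 and 8.85 CPM in the CCl4 libraries, against 6.71 and 7.18 CPM in the control libraries, with a log2 ratio of 0.39 ± 0.23 (SE; adjusted p = 0.507).

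Smooth muscle was the class in which Ly6c1 and Ly6a were called higher in CCl4 libraries. They were 2 of the 3 Ly6 genes tested there, and 1.43% of the 10718 genes tested in smooth muscle were called, and 1.06% were called higher. Ly6c1 was at 81.6 and 102 CPM in the CCl4 libraries, against 25.4 and 21.1 CPM in the control libraries, and the log2 ratio was 1.96 ± 0.22 (SE; adjusted p = 2.41e-04). Ly6a was at 135 and 128 CPM in the CCl4 libraries, against 88.6 and 62.3 CPM in the control libraries, without overlap, with a log2 ratio of 0.79 ± 0.17 (SE; adjusted p = 0.0340). Without control library 2 the Ly6a value was 0.55 (adjusted p = 0.1202). The 439 Ly6c1 counts of the class sat in few cells. The 5% of smooth muscle cells with most Ly6c1 held 98.9% of them, and 34 and 31 cells of the CCl4 libraries, against 17 and 14 cells of the control libraries, had any.

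The class had 2 clusters, which were set side by side after their values were seen and were not tested. The cluster led by Pln, Des and Myl9 scored 4.39 for smooth muscle markers and 3.71 for pericyte markers (mean log2 ratio). Notch3 and Rgs5 were among its leading genes. At the finer resolution 240 cells, led by Rgs5 and Notch3, were named pericytes. The class may thus include pericytes, and their number in it was not counted. In the cluster led by Actg2, Cnn1 and Hhip, Ly6c1 was at 137 and 186 CPM in the CCl4 libraries, against 12.4 and 35.3 CPM in the control libraries. In the cluster led by Pln, Des and Myl9, it was at 32.7 and 25.4 CPM in the CCl4 libraries, against 36.1 and 9.02 CPM in the control libraries. Both CCl4 values lay above both control values in the Actg2-led cells, and the groups overlapped in the Pln-led cells. Ly6a in the Actg2-led cells was at 259.7 and 255 CPM in the CCl4 libraries, against 175 and 115 CPM in the control libraries. In the Pln-led cells Ly6a was at 25.9 and 12.1 CPM in the CCl4 libraries, against 16.5 and 17.0 CPM in the control libraries, again with overlap. Markers of cells that are rich in Ly6a and Ly6c1 moved with these values. The 8 blood endothelial markers in the smooth muscle class summed to 363 and 405 CPM in the CCl4 libraries, against 261 and 267 CPM in the control libraries. In the Actg2-led cluster they summed to 359.6 and 487 CPM in the CCl4 libraries, against 175 and 201 CPM in the control libraries, and in the Pln-led cluster to 366 and 329.8 CPM in the CCl4 libraries, against 331 and 323 CPM in the control libraries. The 7 fibroblast markers in the smooth muscle class summed to 4814 and 5175 CPM in the CCl4 libraries, against 2627 and 2489.5 CPM in the control libraries. In the Actg2-led cluster these summed to 9212 and 9959 CPM in the CCl4 libraries, against 4993 and 4455 CPM in the control libraries. For the Pln-led cluster the sums were 945 and 796 CPM in the CCl4 libraries, against 666 and 817 CPM in the control libraries. Per fibroblast marker count, the class had 0.0281 and 0.0248 Ly6a counts in the CCl4 libraries, against 0.0337 and 0.025 in the control libraries. For Ly6c1 these were 0.017 and 0.0197, against 0.0097 and 0.0085. At the finer resolution, 93 cells formed a smooth muscle cluster led by Actg2 and Lmod1, with fibroblast as the next marker set. It had 40 and 35 cells in the CCl4 libraries, against 9 and 9 in the control libraries, and a median of 7839 counts. In the class all 8 and all 7 markers were above 0 in every library, and the part of the fibroblast markers in the result was not tested. In smooth muscle cells with no count of the 8 endothelial markers, a restriction added after the data were seen, Ly6c1 was at 8.89 and 39.8 CPM in the CCl4 libraries, against 16.1 and 7.90 CPM in the control libraries. The groups then overlapped, and the log2 ratio was 0.92 ± 0.58 (SE; adjusted p = 0.636). For Ly6a these cells had 115 and 114 CPM in the CCl4 libraries, against 117 and 44.0 CPM in the control libraries, and the log2 ratio was 0.48 ± 0.27 (SE; adjusted p = 0.558). They numbered 243 and 209 cells in the CCl4 libraries, against 270 and 262 cells in the control libraries, and 1.74% of 8637 genes were called among them.

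**Figure D3:**
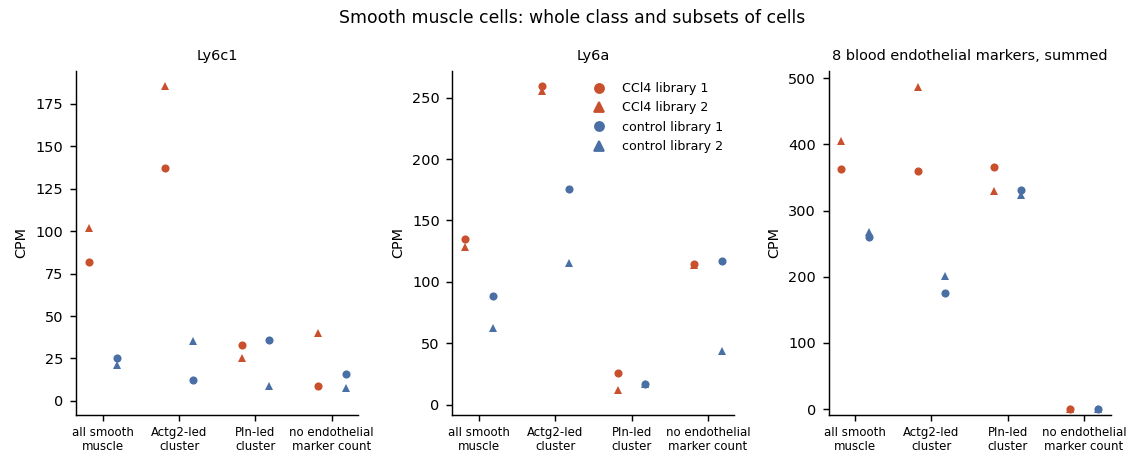
Ly6c1, Ly6a and the sum of 8 blood endothelial markers (CPM, linear axes) in all smooth muscle cells, in their Actg2-led and Pln-led clusters and in the cells with no count of those markers, with 1 point per library (CCl4 left, control right). Ly6c1 was at 137 and 186 CPM in the Actg2-led cells of the CCl4 libraries, against 12.4 and 35.3 CPM in the control libraries, and the groups overlapped in the cells with no endothelial marker count.

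Ly6c2, the near copy of Ly6c1, was counted almost entirely in plasma cells, which make antibody and were led here by Jchain, Igha and light chain genes. Of all Ly6c2 counts of a library, plasma cells held 94.8% and 94.5% in the CCl4 libraries, against 97.9% and 97.8% in the control libraries. The libraries had 301 and 254 plasma cells from the CCl4 group, against 556 and 526 plasma cells from the control group. Within plasma cells the level was 2094 and 2146 CPM in the CCl4 libraries, against 3135 and 3251 CPM in the control libraries, without overlap, and the log2 ratio was -0.71 ± 0.089 (SE; adjusted p = 0.00751). Without CCl4 library 1 it was -0.71 (adjusted p = 0.0947), and without CCl4 library 2 it was -0.70 (adjusted p = 0.0520). Ly6a and Ly6c2 were thus 2 of the 4 Ly6 genes called in plasma cells, where 1.4% of 11058 genes were called and 0.407% were called lower. Per 1000 counts of the 7 plasma cell markers, which themselves took up 461425 and 475982 CPM of the class in the CCl4 libraries, against 525754 and 505717 CPM in the control libraries, the Ly6c2 counts of plasma cells numbered 4.54 and 4.51 in the CCl4 libraries, against 5.96 and 6.43 in the control libraries. After thinning, the share of plasma cells with Ly6c2 was 57.1% and 53.5% in the CCl4 libraries, against 65.6% and 67.3% in the control libraries. The share in glia, which should lack it, was 0.365% and 0.405% in the CCl4 libraries, against 0% and 0.610% in the control libraries. Before thinning the median counts per cell were 12174 to 16048 in plasma cells and 3327 to 3749 in glia.

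The share of Ly6c1 in the counts of the pair varied from class to class. In blood endothelial cells it was 99.7% and 99.7% in the CCl4 libraries, against 99.7% and 99.6% in the control libraries. In plasma cells its share was 1.52% and 1.30% in the CCl4 libraries, against 0.708% and 0.750% in the control libraries. T cells lay between them, with a share of 17.8% and 19.8% in the CCl4 libraries, against 23.1% and 17.6% in the control libraries. The 95% Wilson intervals, which cover counting error only, ran from 99.5% to 99.8% in endothelial cells, from 0.612% to 1.79% in plasma cells and from 13.3% to 28.9% in T cells. The transcripts are of similar length, 844 and 822 bases, so length alters these shares little. In colonocytes, where both genes were rare, the Ly6c1 share was 85.2% and 92.3% in the CCl4 libraries, against 60.4% and 58.8% in the control libraries.

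T cells had Ly6c2 at 52.8 and 51.8 CPM in the CCl4 libraries, against 50.7 and 59.8 CPM in the control libraries, with overlap and a log2 ratio of -0.081 ± 0.15 (SE; adjusted p = 0.952). The 5% of T cells with most Ly6c2 held 98.9% of its 733 counts. The Ifng-led T cells had 120.5 and 129 CPM in the CCl4 libraries, against 69.0 and 105 CPM in the control libraries, and the Gzma-led T cells 65.3 and 39.7 CPM in the CCl4 libraries, against 71.5 and 80.1 CPM in the control libraries. The dendritic class had 76.5 and 76.1 CPM in the CCl4 libraries, against 207 and 133 CPM in the control libraries, and a log2 ratio of -1.09 ± 0.25 (SE; adjusted p = 0.1196). Without control library 2 it was -1.40. This class joined unlike cells. At the finer resolution, 412 of its 619 cells fell into a cluster led by Wdfy4 and Plbd1 that kept the dendritic name and held 19 of the class's 420 Ly6c2 counts. Another 205 cells fell into an unnamed cluster led by Il1b, Retnla and S100a9, which held 401 of them. In that Il1b-led cluster of 237 cells, chosen after its values were seen, Ly6c2 was at 305 and 270.3 CPM in the CCl4 libraries, against 611 and 497 CPM in the control libraries. Both CCl4 values lay below both control values. The plasma cell markers there summed to 1039 and 42457 CPM in the CCl4 libraries, against 1063 and 1279 CPM in the control libraries, so CCl4 library 2 stood apart, and the part of this in its Ly6c2 value was not tested. The Mrc1-carrying, Pf4-led macrophage cluster had 3.86 and 12.3 CPM in the CCl4 libraries, against 17.4 and 4.59 CPM in the control libraries. The whole macrophage and monocyte class had Ly6c2 at 4.63 to 11.8 CPM over the 4 libraries. Its finer clusters raised 0 or 1 of 5 monocyte markers, so the level of Ly6c2 in monocytes cannot be read from this class.

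In colonocytes Ly6c2 was called lower in the CCl4 libraries, but at very low counts. It had 21 and 9 counts in the CCl4 libraries, against 36 and 42 counts in the control libraries. These gave levels of 1.62 and 0.737 CPM in the CCl4 libraries, against 4.39 and 5.02 CPM in the control libraries, without overlap. The log2 ratio was -1.97 ± 0.47 (SE; adjusted p = 0.0418). The plasma cell markers in colonocytes summed to 573 and 484 CPM in the CCl4 libraries, against 907 and 920.3 CPM in the control libraries, also lower in both CCl4 libraries, and 1 of the 7, Tnfrsf17 or Derl3, was at 0 in 3 of the 4 libraries. Per 1000 counts of these markers, the Ly6c2 counts of colonocytes numbered 2.83 and 1.52 in the CCl4 libraries, against 4.85 and 5.46 in the control libraries, in each library fewer than in its plasma cells. The part of plasma cell transcripts in the Ly6c2 result was not tested. The call was lost without control library 1, at -2.03 (adjusted p = 0.275), without control library 2, at -1.90 (adjusted p = 0.0553), and without CCl4 library 2, at -1.49 (adjusted p = 0.332). It was also lost with DESeq2, at -1.99 (adjusted p = 0.0796). Apart from Ly6a, whose value there the selection used, Ly6c2 and Ly6e were called in colonocytes and Ly6c1 was not, while 1.32% of 13498 genes were called and 0.733% were called lower. Goblet cells had Ly6c2 at 1.57 and 1.36 CPM in the CCl4 libraries, against 3.63 and 3.59 CPM in the control libraries, with a log2 ratio of -1.25 ± 0.53 (SE; adjusted p = 0.328). Among B cells, the level of 77.5 CPM in CCl4 library 2 came from 37 counts in 2 of 163 cells, and the other libraries held 0 to 1 counts.

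Ly6e was spread most widely. In blood endothelial cells it was at 2739.7 and 2677 CPM in the CCl4 libraries, against 2943 and 2939 CPM in the control libraries, above the other 12 classes in every library. Plasma cells had 1195 and 1090.4 CPM in the CCl4 libraries, against 1043 and 1207 CPM in the control libraries. Lymphatic endothelial cells had 1103 and 815 CPM in the CCl4 libraries, against 1155 and 1304 CPM in the control libraries, followed in order by macrophages and monocytes, dendritic cells, T cells, goblet cells and B cells, each overlapping its neighbour. Fibroblasts had 453 and 407 CPM in the CCl4 libraries, against 446 and 450.2 CPM in the control libraries. Smooth muscle and colonocytes were lower still, and glia lowest at 21.7 to 54.3 CPM. In the epithelium the order of Ly6e was the reverse of that of Ly6a. Goblet cells had Ly6e at 769.8 and 764 CPM in the CCl4 libraries, against 681 and 796 CPM in the control libraries. Undivided epithelial cells had 196 and 196 CPM in the CCl4 libraries, against 283 and 343 CPM in the control libraries. Colonocytes had the least, 89.2 and 93.1 CPM in the CCl4 libraries, against 154 and 138 CPM in the control libraries.

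Ly6e was lower in CCl4 libraries in 2 classes. In colonocytes the groups did not overlap, and the log2 ratio was -0.68 ± 0.094 (SE; adjusted p = 3.23e-04). Without control library 1 it was -0.56 (adjusted p = 0.0721), and in stricter cells -0.65 (adjusted p = 0.0882). In colonocytes with no count of endothelial or fibroblast markers it was -0.66 ± 0.10 (SE; adjusted p = 0.00540), where 0.451% of 11762 genes were called. The Krt20-led colonocytes had 74.4 and 73.2 CPM in the CCl4 libraries, against 151 and 135 CPM in the control libraries. In undivided epithelial cells the log2 ratio was -0.62 ± 0.13 (SE; adjusted p = 0.125). It passed without control library 1, at -0.74 (adjusted p = 2.15e-05), without control library 2, at -0.49 (adjusted p = 0.0220), and with DESeq2, at -0.64 (adjusted p = 0.0415). In goblet cells it was 0.090 ± 0.083 (SE; adjusted p = 0.698).

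Macrophages and monocytes, led by C1qa, C1qb and Pf4, had Ly6e at 761 and 715 CPM in the CCl4 libraries, against 1034 and 1158 CPM in the control libraries. Both CCl4 values lay below both control values, and the log2 ratio was -0.56 ± 0.092 (SE; adjusted p = 0.00299). It was the 1 Ly6 gene of 4 called in this class, where 1.37% of 11032 genes were called and 0.39% were called lower. The direction was the same in all 3 macrophage clusters of the finer clustering. These raised 0 or 1 of 5 markers of monocytes and inflammatory macrophages, so the class is not shown to hold monocytes. The Pf4-led cluster, with 3 of 5 markers of resident macrophages, had 1049.6 and 911 CPM in the CCl4 libraries, against 1273 and 1421 CPM in the control libraries. The Ccl4-led cluster had 444 and 529.6 CPM in the CCl4 libraries, against 623 and 603 CPM in the control libraries, and the Dnase1l3-led cluster 368 and 462 CPM in the CCl4 libraries, against 583 and 632 CPM in the control libraries. Epithelial transcripts moved the other way in the macrophage and monocyte class, where the 7 shared epithelial markers summed to 775 and 851 CPM in the CCl4 libraries, against 422 and 382 CPM in the control libraries. All 7 were above 0 in every library. In the cells with none of them, a restriction added after the data were seen that left 128 and 138 cells in the CCl4 libraries, against 344 and 311 cells in the control libraries, Ly6e was at 897 and 794 CPM in the CCl4 libraries, against 1108 and 1205 CPM in the control libraries. There the groups still did not overlap, but the log2 ratio of -0.45 ± 0.14 (SE; adjusted p = 0.273) was no longer called, and 0.482% of 7674 genes were.

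**Figure D4:**
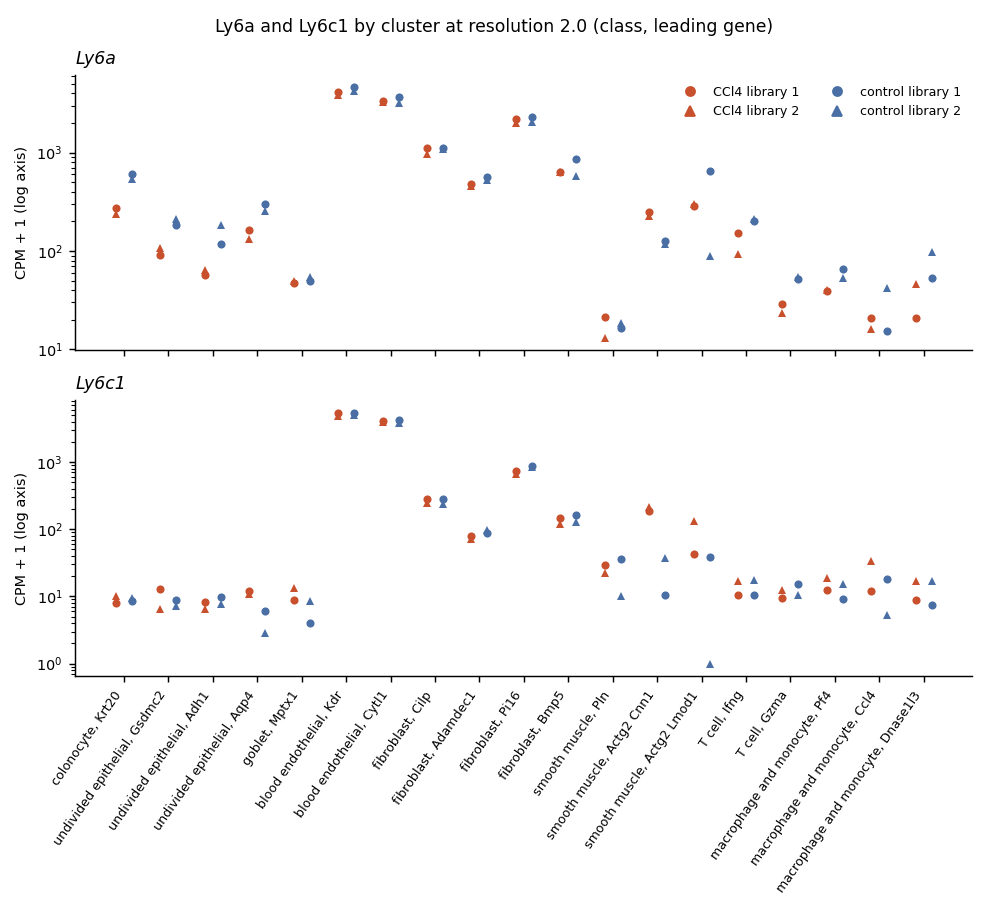
Level of Ly6a and Ly6c1 (CPM + 1, log axes) in 19 clusters of the finer clustering, each named by its class and leading gene, with 1 point per library (CCl4 left, control right). Ly6a was at 2199 and 1994 CPM in the Pi16-led fibroblasts of the CCl4 libraries, against 2307 and 2061 CPM in the control libraries, and Ly6c1 lay highest in the endothelial clusters.

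Whether a change differed between classes was tested directly with a class-by-treatment term. Relative to fibroblasts, the log2 ratio of Ly6a in colonocytes was lower by a difference of -0.98 ± 0.086 (SE), and relative to blood endothelial cells by -1.04 ± 0.074 (SE), given as descriptions. Relative to macrophages and monocytes the difference for Ly6a was -0.48 ± 0.18 (SE), and relative to T cells -0.38 ± 0.13 (SE). Ly6e differed in the same direction, by -0.61 ± 0.11 (SE; adjusted p = 0.00135) against fibroblasts, -0.57 ± 0.083 (SE; adjusted p = 6.32e-06) against blood endothelial cells and -0.59 ± 0.11 (SE; adjusted p = 0.0135) against T cells. From blood endothelial cells the Ly6e difference was -0.61 with DESeq2 (adjusted p = 0.0841) and -0.58 without the library block (adjusted p = 0.163), and was no longer called. Without control library 1 the difference from fibroblasts was -0.43 (adjusted p = 0.0707) and that from T cells -0.44 (adjusted p = 0.116). Without CCl4 library 1 they were -0.48 (adjusted p = 0.0867) and -0.51 (adjusted p = 0.110), and without control library 2 the difference from T cells was -0.72 (adjusted p = 0.0679). Against macrophages and monocytes, in which Ly6e was itself lower, the difference was -0.17 ± 0.12 (SE; adjusted p = 0.723). Ly6c2 differed from T cells by -1.86 ± 0.40 (SE; adjusted p = 0.0276), and without CCl4 library 2 by -1.41 (adjusted p = 0.229). Ly6c1 did not pass in any of the 4 comparisons, with differences of 0.67 ± 0.19 (SE; adjusted p = 0.0634) from fibroblasts and 0.41 ± 0.14 (SE; adjusted p = 0.279) from blood endothelial cells. Of all genes tested, 2.21% were called in the comparison with fibroblasts, 1.19% with blood endothelial cells, 1.22% with macrophages and monocytes and 1.17% with T cells. All 4 comparisons share the colonocyte sums.

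Genes that respond to interferon were counted beside the Ly6 genes, from a list of 33 targets. The list was chosen with earlier results of these data known, so its counts and p-values lend no independent support. Of all genes tested, 1.32% were called in colonocytes, 0.121% in undivided epithelial cells and 0.981% in goblet cells. The share was 1.37% in macrophages and monocytes, 1.4% in plasma cells and 1.43% in smooth muscle. In colonocytes 30 targets were tested, 0 were called higher and 7 lower, and the median log2 ratio was -0.57, against 0.0026 for all genes. Psmb8, a subunit of the immunoproteasome, changed by -1.99 ± 0.099 (SE; adjusted p = 7.31e-11), Psmb9, another such subunit, by -1.24 ± 0.11 (SE; adjusted p = 7.75e-07), and Zbp1, a sensor of nucleic acid, by -1.50 ± 0.14 (SE; adjusted p = 1.75e-06). DESeq2 called 6 of the 30, without Cxcl10 (adjusted p = 0.894). In undivided epithelial cells 19 targets were tested, 1 was called lower, and the median was -0.69. Psmb8 changed there by -1.28 ± 0.20 (SE; adjusted p = 0.0420). In goblet cells, where Ly6a and Ly6e were not called, 1 of 23 was lower and the median was -0.09. In macrophages and monocytes 2 of 33 were higher and 3 lower, with a median of -0.18. Higher were Rsad2, which blocks the replication of viruses, at 0.80 ± 0.17 (SE; adjusted p = 0.0220), and Ifit1, which binds viral RNA, at 1.78 ± 0.39 (SE; adjusted p = 0.0280). Iigp1, a GTPase induced by interferon gamma, changed by -2.55 ± 0.32 (SE; adjusted p = 2.10e-04), Gbp2, a guanylate-binding protein, by -1.32 ± 0.26 (SE; adjusted p = 0.0130) and Psmb9 by -0.68 ± 0.14 (SE; adjusted p = 0.0138). In plasma cells 0 of 24 were called by edgeR and 2 by DESeq2, 8 had an unadjusted edgeR p under 0.05, and the median was -0.21. The share of all genes with such an unadjusted p was not counted in any class. In smooth muscle 1 of 25 was lower and the median was -0.09. This was Cxcl9, a chemokine induced by interferon gamma, with 0 and 1 counts in the CCl4 libraries, against 93 and 13 counts in the control libraries (edgeR adjusted p = 0.0100), and with DESeq2 it was not called (adjusted p = 0.104).

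**Figure D5:**
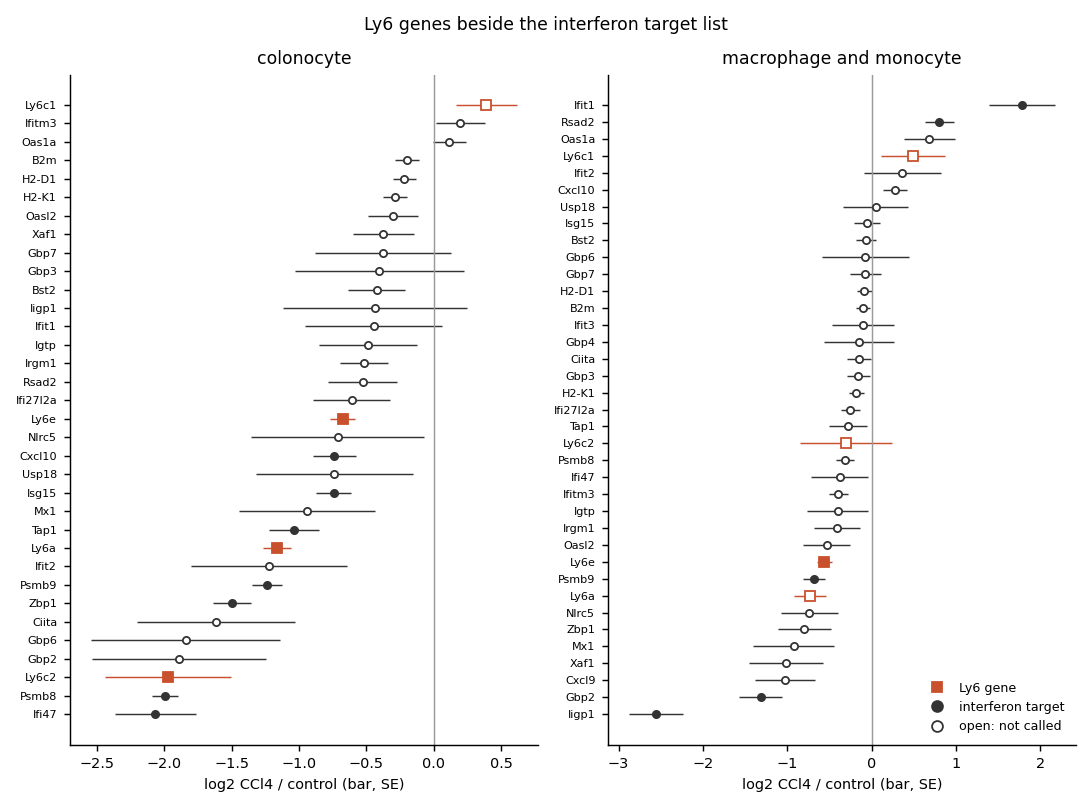
Fitted log2 ratio of CCl4 over control (point; bar, SE) of the Ly6 genes (squares) and of the interferon targets tested (circles) in colonocytes and in macrophages and monocytes, filled where the adjusted p was under 0.05 and open where it was not. In colonocytes Ly6a at -1.16 and Ly6e at -0.68 lay among targets called lower, such as Isg15 at -0.74 and Psmb9 at -1.24, while in macrophages and monocytes targets were called in both directions.

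Genes upstream in the pathway were counted in the same way. Among all genes tested, 1.32% were called in colonocytes and 1.37% in macrophages and monocytes. In T cells 0.539% were called, and in goblet cells 0.981%. Of 14 genes for interferon receptors and their signal, all were tested in colonocytes, 0 were higher and 2 lower, the transcription factors Irf7 at -0.52 ± 0.11 (SE; adjusted p = 0.0253) and Irf1 at -0.41 ± 0.100 (SE; adjusted p = 0.0489). DESeq2 called 0 of the 14 in colonocytes, with an adjusted p of 0.0949 for Irf7 and 0.0970 for Irf1. Unadjusted, 5 of the 14 had an edgeR p under 0.05 in colonocytes, and 4 a DESeq2 p under 0.05. In macrophages and monocytes Irf1 was lower, at -0.55 ± 0.12 (SE; adjusted p = 0.0265), and DESeq2 called it too (adjusted p = 0.0477). Among 7 ligands, which include Il18, a cytokine that induces interferon gamma, Ifng was lower in T cells, at -0.70 ± 0.12 (SE; adjusted p = 0.0248), and Ifnb1 was higher in macrophages and monocytes, at 2.17 ± 0.28 (SE; adjusted p = 2.93e-04). Il18 was higher in goblet cells, at 1.84 ± 0.29 (SE; adjusted p = 0.00967). DESeq2 called the same 3. Of 25 genes for the synthesis of the GPI anchor that holds Ly6 proteins at the surface, between 2 and 24 were tested in a class. In the 13 classes 0 were called by edgeR or by DESeq2. The share of all genes called by edgeR was itself low, from 0% in B cells to 1.95% in fibroblasts. The 0 calls therefore say little about these genes. Over the 252 edgeR tests of these genes, 13 had an unadjusted p under 0.05, and over those of DESeq2, 3.

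Of the 38 other genes of the Ly6 and uPAR family, between 2 and 13 were tested in a class. The highest levels belonged to Lypd8 in colonocytes, Cd59a in glia, Plaur in goblet cells, Ly6d in plasma cells and Gpihbp1 in lymphatic endothelial cells, at class means of 3546, 924, 432, 401 and 295 CPM over the 4 libraries. Lypd8, which keeps flagellated bacteria away from the colon epithelium, was called higher in 5 classes. In goblet cells its log2 ratio was 1.05 ± 0.098 (SE; adjusted p = 1.89e-04). The other 4 were T cells at 0.99 ± 0.15 (SE; adjusted p = 0.0140), fibroblasts at 0.85 ± 0.11 (SE; adjusted p = 5.90e-04), glia at 1.54 ± 0.30 (SE; adjusted p = 0.0105) and plasma cells at 1.41 ± 0.24 (SE; adjusted p = 0.0282). The share of all genes called was 0.981% in goblet cells, 0.539% in T cells, 1.95% in fibroblasts, 0.67% in glia and 1.4% in plasma cells. Outside goblet cells the epithelial markers were also higher in the CCl4 libraries of these classes, and in T cells the 7 markers summed to 945 and 1029.7 CPM in the CCl4 libraries, against 431 and 403 CPM in the control libraries. Their part in the Lypd8 values was not tested, nor was the part of colonocyte transcripts in the value of goblet cells. In colonocytes, where Lypd8 was highest, its log2 ratio was -0.11 ± 0.083 (SE; adjusted p = 0.646). Plaur, the receptor of urokinase, was called higher in macrophages and monocytes, at 0.98 ± 0.13 (SE; adjusted p = 3.85e-04). In colonocytes 10 of the 38 were tested, and 0 were called or had an unadjusted p under 0.05 by edgeR or DESeq2.

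Over the means of 13 classes, the likeness of expression patterns was ranked by Pearson r of log2(CPM + 10) among 7511 genes, as a description over classes that share libraries. Nearest to Ly6a was Ly6c1 (r = 0.81), and Cd34, a surface protein of endothelial and stromal precursors, was at 0.76. Ly6c1 came closest to Pdgfd (r = 0.96), a growth factor, Fam13c (0.96) and Jam2 (0.95), an adhesion protein of endothelial junctions. Ly6c2 stood with plasma cell genes, among them Jchain (r = 0.94), Igha (0.93) and Igkc (0.92). Nearest to Ly6e were Tspan13 (r = 0.85), Apobec3 (0.85), a deaminase that acts on retroviruses, and Tmem173 (0.83), which encodes the DNA-signalling protein STING. Between Ly6c1 and Ly6c2, the most alike in sequence, r was -0.08.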

How the data were processed

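Colon cells of 2 CCl4 and 2 control libraries were dissociated enzymatically and captured in droplets, per the labels. The authors deposited raw counts for each gene and barcode. PISA v0.12b made the matrices, per the file headers, and the build was GRCm38, per the submitters' processing notes. Not given in the sources used here are the aligner, the annotation and the handling of reads that match several genes. Deposited barcodes began at 1001 or 1002 counts. Cells were kept from 200 genes upward and up to 25% mitochondrial counts, and cells above the scrublet doublet score that marks the top 6% of a library were removed (641 and 593 cells of the CCl4 libraries, against 511 and 503 cells of the control libraries). Clustering used scanpy 1.11.5 (2000 variable genes, 30 components, 15 neighbours, leiden resolution 1.0), and a cluster was named where at least 3 markers of 1 of 25 sets were raised by 1 on the log2 scale in at least 10% of cells, where that set led the next by 0.5 in mean log2 ratio and where no other set had more of the 10 leading genes. Epithelial clusters in which no single type led were called undivided. Counts were summed by class and library, 163419 to 12944582 a sum. They were tested with edgeR 4.0.16 (TMM factors, filterByExpr, quasi-likelihood test, R 4.3.3), with Benjamini-Hochberg adjustment over all genes of a class, after the code was checked on simulated counts. The SE given with an edgeR log2 ratio was derived from that test, as the absolute log2 ratio divided by the square root of its F statistic. Differences between classes used a class-by-treatment term with the library as a block. Alternatives were DESeq2 1.42.0, no low-count filter, a replicate block, each library left out, stricter cells, doublets kept and resolution 2.0. The Ly6 genes, the marker sets and the gene lists were chosen with earlier results of these data known. Named were the Ly6 genes in each class, called or highest other family members, up to 3 called genes of a list with the smallest p in classes where a Ly6 gene was called, and the 5 genes most like each Ly6 gene, of which the text gives some. A result of the interferon signalling list is not reported here.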

Additional observations from a re-analysis of the deposited data

Results flagged for a closer look

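In 4 tests of the difference itself, Ly6e or Ly6c2 had a lower log2 ratio in colonocytes than in another class of the same libraries, and Ly6a is described beside them. Each value is the log2 ratio of CCl4 over control in colonocytes minus that in the other class. For Ly6e the difference was -0.6052 ± 0.11 (SE; edgeR adjusted p = 0.00135) from fibroblasts, -0.57 ± 0.083 (SE; adjusted p = 6.32e-06) from blood endothelial cells, which was not called with DESeq2, and -0.5916 ± 0.11 (SE; adjusted p = 0.0135) from T cells. For Ly6c2 it was -1.8611 ± 0.40 (SE; adjusted p = 0.0276) from T cells, on 21 and 9 counts in colonocytes of the CCl4 libraries, against 36 and 42 counts in colonocytes of the control libraries. The lower Ly6c2 in colonocytes was itself called in 2 of 9 other settings. Plasma cell markers in colonocytes summed to 573 and 484 CPM in the CCl4 libraries, against 907 and 920 CPM in the control libraries. Their part in this difference was not tested. For Ly6a it was -0.983 ± 0.086 (SE) from fibroblasts and -1.0432 ± 0.074 (SE) from blood endothelial cells, both as descriptions and not as tests, since the genes were chosen with its lower level in colonocytes known. Groups of 2 libraries were too small to look for single libraries far from the others.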

How the results depend on the processing

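The 9 calls among gene and class pairs became 9 without the low-count filter, 10 with DESeq2, 7 in stricter cells (at least 500 genes, at most 10% mitochondrial counts), 8 with doublets kept, 8 at resolution 2.0 and 6 to 13 with 1 library left out. The 6 calls among differences between classes, 2 of them the Ly6a values given as descriptions, became 7 without the filter, 5 with DESeq2 (without Ly6e against blood endothelial cells) and 4 to 5 with 1 library left out. They fell to 3 without the library block. There the 3 Ly6e differences were lost, at -0.61 from fibroblasts, -0.58 from blood endothelial cells and -0.60 from T cells. With a replicate block on the library numbers, 13 gene and class pairs were called, and the gains included Ly6c1 in fibroblasts (-0.29) and Ly6a in macrophages and monocytes (-0.73). Libraries of the same number correlated at -0.0021 to 0.1696 in their deviations, over 2 pairs, so the numbers are not shown to pair libraries. Gene and class pairs with a count in at least 10% of cells of every library numbered 23, and 17 after thinning to 1000 counts, 23 in stricter cells and 24 with doublets kept.

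In colonocytes, testing every gene with at least 1 count ended the calls of Ly6a (-1.14), Ly6c2 (-1.95) and Ly6e (-0.66). Ly6c2 was also lost with doublets kept (-2.02) and at resolution 2.0 (-1.95). Of the planned changes by class, 375 kept direction and side of the threshold, 17 lost the call, 18 gained it and 29 turned direction, each of the last without a call before or after. They turned as follows on the log2 scale. Without the filter these were Ly6e in B cells (0.1223) and Ly6c1 in blood endothelial cells (0.0032). In stricter cells they were Ly6c2 in blood endothelial cells (0.0644) and Ly6a in goblet cells (0.0309). With doublets kept they were Ly6c1 in macrophages and monocytes (-0.1783), plasma cells (-0.6719) and undivided epithelial cells (0.2989). At resolution 2.0 they were Ly6c2 in T cells (0.1417), Ly6a in dendritic cells (0.2172) and Ly6c1 in undivided epithelial cells (0.4197). With the replicate block it was Ly6c1 in dendritic cells (-0.0009). With 1 library left out in turn, the log2 ratio ran from -0.26 to 0.19 for Ly6e in B cells, -0.17 to 0.016 for Ly6c2 in T cells, -0.14 to 0.037 for Ly6e in T cells, -0.10 to 0.073 for Ly6c1 in blood endothelial cells and -0.23 to 0.11 for Ly6c2 in blood endothelial cells. It ran from -1.88 to 0.25 for Ly6a in dendritic cells, -0.62 to 1.36 for Ly6c1 in dendritic cells, -0.18 to 0.031 for Ly6e in fibroblasts, -0.12 to 0.022 for Ly6a in goblet cells and -0.015 to 0.20 for Ly6e in goblet cells. It ran from -0.35 to 4.02 for Ly6c1 in lymphatic endothelial cells, -0.85 to 0.54 for Ly6c2 in macrophages and monocytes, -0.61 to 0.051 for Ly6c1 in undivided epithelial cells and -0.58 to 0.48 for Ly6c1 as a difference of colonocytes from macrophages and monocytes. Among the cells chosen by absence of other markers, an alternative added after the data were seen, Ly6e in smooth muscle was at -0.1422 and Ly6c1 in colonocytes at -0.1168. The cause of these changes was not tested. Depth limited Ly6c2 outside plasma cells, and lymphatic endothelial cells, with 62 to 104 cells a library, rested on few cells.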

Other observations

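A cluster without a name held much of the Ly6c1 and Ly6a outside the named classes. Its leading genes were Rgs5, a pericyte gene, and Fabp4, Sema3g, Tm4sf1, Ly6c1 and Plvap, which are known from endothelial cells, and it had 180 and 171 cells in the CCl4 libraries, against 22 and 48 cells in the control libraries. Ly6c1 was at 4167 and 3675 CPM in its CCl4 cells, against 4291 and 4069 CPM in its control cells. Ly6a was at 3130.4 and 2888 CPM in its CCl4 cells, against 3627 and 3293 CPM in its control cells. The median count per cell was 10499 and 10334 in the CCl4 libraries, against 10595.5 and 10576 in the control libraries, while blood endothelial cells had 4132 and 3997.5 in the CCl4 libraries, against 3265.5 and 3211 in the control libraries. All unnamed clusters together held 30.9% and 32.2% of the Ly6c1 counts of the CCl4 libraries, against 10.1% and 19.1% of those of the control libraries. Whether cells of this cluster are doublets left after the filter was not tested. Levels within the named classes leave these cells out.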
